A study of Rattus norvegicus with 2 samples.

Results

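Genes tied to the activation and survival of neutrophils, namely Il1r2, G0s2, Lrg1, Csf3r, Bcl2a1, Mcemp1, Car4 and Dgat2, were described in leukocytes of the infarcted rat heart, as 8 of the 26976 gene symbols measured. They were a listed set, picked with earlier results of these same cells known, so their high level in neutrophils is a description and carries no test. The cells came from left ventricles of rats labelled wild type, with infarct and border zone together, 7 days after surgery. They were sorted for the leukocyte antigen CD45, and 1 sample each is labelled MI (myocardial infarction) and MI+PUR-hAESC (infarction with a PUR-hAESC patch). Both groups thus share the infarction. The sources used here give no strain, age or number of animals for either sample. Transcripts were tagged by droplet single-cell sequencing with unique molecular identifiers (UMIs), each standing for 1 captured transcript.

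Both samples were deposited as 1 matrix, in which a barcode's suffix is 1 or 2, and no label ties a suffix to a group. They are called library 1 and library 2, and no difference between them is given a treatment direction. Library 1 held 14283 barcodes and 72506643 UMIs, and library 2 held 15666 barcodes and 82802439 UMIs. The libraries share 71 barcodes. After filters on quality and doublets, 13334 and 14434 cells were kept. With 1 library a side there is no replicate, so intervals in brackets are 95% intervals that cover counting error only.

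Neutrophils are short-lived granulocytes that enter an infarct early, clear debris and die by apoptosis unless cytokines prolong their life. Granulocyte colony-stimulating factor (G-CSF) acts through its receptor to drive their production and survival. Interleukin 1 is a main alarm signal of the damaged heart. Retnlg encodes a resistin-like protein of rodent neutrophils, and granule genes are transcribed mainly while neutrophils form in the bone marrow.

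Neutrophils were taken as cells with at least 2% of their UMIs in S100a8 and S100a9, which encode the subunits of calprotectin. This gave 3910 cells in library 1, 29.3% (28.6 to 30.1) of those kept, and 1691 cells in library 2, 11.7% (11.2 to 12.3). Cells with 3 or more Retnlg UMIs were called Retnlg-high and those with 2 or fewer Retnlg-low. Retnlg-low cells made up 85.2% (84.1 to 86.3) of the neutrophils of library 1 and 55.2% (52.8 to 57.6) of those of library 2. In numbers, library 1 had 577 Retnlg-high and 3333 Retnlg-low cells, and library 2 had 758 and 933. A raw UMI limit favours deep cells, and the median UMI number was 2782 and 3295 in Retnlg-high cells but 2191 and 2201 in Retnlg-low cells of libraries 1 and 2.

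The label of the gate held for most markers that it had not used. Of 6 neutrophil markers, 5 reached 20 CPM (counts per 1000000 UMIs) in Retnlg-high cells of each library and 4 in Retnlg-low cells. Cxcr2, the receptor that draws neutrophils along CXC chemokines, stood at 258 and 280 CPM in Retnlg-high and at 263 and 274 CPM in Retnlg-low cells, against at most 2.79 CPM in monocytes, macrophages, T cells or B cells. Lcn2, a granule gene of immature neutrophils, was at 0.408 to 12.2 CPM. Comparison cells were gated on complement C1q genes (macrophages, 1444 and 1504 cells), on Fcnb and Vcan without C1q (monocytes, 1109 and 664 cells), and on T cell and B cell receptor genes.

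The 3 genes whose CPM fell with each rise in Retnlg content in both libraries, with limits given below, were G0s2, Csf3r and Bcl2a1. They are shown with the 300 bases around their RefSeq start sites in GRCr8 (250 before, 50 after). Whether they share regulation was not tested. Coordinates are RefSeq's, as the sources used here give no build for the counts. They lie at chr13:107335899-107336198 on the minus strand (G0s2), chr5:143582970-143583269 on the plus strand (Csf3r) and chr8:98596556-98596855 on the plus strand (Bcl2a1). Capitals mark every match of 4 short motifs on either strand.
G0s2: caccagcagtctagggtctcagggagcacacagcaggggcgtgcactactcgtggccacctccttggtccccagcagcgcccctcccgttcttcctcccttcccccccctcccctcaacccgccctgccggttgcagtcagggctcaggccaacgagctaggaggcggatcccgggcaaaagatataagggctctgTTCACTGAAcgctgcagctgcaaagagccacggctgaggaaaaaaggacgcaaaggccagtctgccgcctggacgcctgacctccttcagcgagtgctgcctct
Csf3r: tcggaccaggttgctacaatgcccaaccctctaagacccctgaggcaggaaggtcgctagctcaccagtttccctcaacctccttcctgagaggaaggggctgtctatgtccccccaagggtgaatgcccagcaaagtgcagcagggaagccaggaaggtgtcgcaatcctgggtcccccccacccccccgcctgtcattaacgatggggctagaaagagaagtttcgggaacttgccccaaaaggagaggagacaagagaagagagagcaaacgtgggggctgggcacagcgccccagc
Bcl2a1: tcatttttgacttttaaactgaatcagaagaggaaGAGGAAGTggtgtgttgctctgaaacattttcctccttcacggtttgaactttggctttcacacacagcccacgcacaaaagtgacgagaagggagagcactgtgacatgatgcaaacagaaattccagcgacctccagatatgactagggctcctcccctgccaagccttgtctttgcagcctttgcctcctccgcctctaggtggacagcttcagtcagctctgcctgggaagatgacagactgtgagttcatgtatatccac
The STAT-like motif TTCNNNGAA, whose factors act below the G-CSF receptor, was found at -54 from the G0s2 start and is in 8.87% of 33465 rat promoters of this length. The ETS-like motif GAGGAAGT, a form bound by PU.1, was found at -215 in Bcl2a1 and is in 2.42% of promoters. Csf3r held none of the 4 motifs. The C/EBP-like motif TTGCNNAA (10.6% of promoters) and the letters TATAAA (14.2%) were in none of these 3 windows, and TATAAA was at -40 in Lrg1 and at +20 in Car4. Promoters were found for 6 of the 8 genes, and those of Il1r2 and Dgat2 are not shown. A match is a string of letters and was not tested as a binding site.

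All 8 genes were higher in neutrophils than in macrophages at 2-fold or more in library 1, and 7 of 8 were in library 2, where Bcl2a1 was the exception. Under TMM factors Bcl2a1 was also past 2-fold over macrophages in library 2, with a log2 ratio of 1.46 in place of 0.44. Over all genes tested the same share was 12.3% in library 1 and 10.8% in library 2. Against monocytes the count was again 8 of 8 in library 1 and 7 of 8 in library 2, over a background of 10.4% and 8.73%. The median log2 ratio over macrophages, taken on CPM plus 10, was 5.38 and 5.49 for the 8 genes and -0.62 and -0.75 for all genes. Over monocytes it was 4.21 and 3.43, against -0.53 and -0.64 for all genes. Since the genes were chosen for this pattern, nothing is read from these counts.

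**Figure D1:**
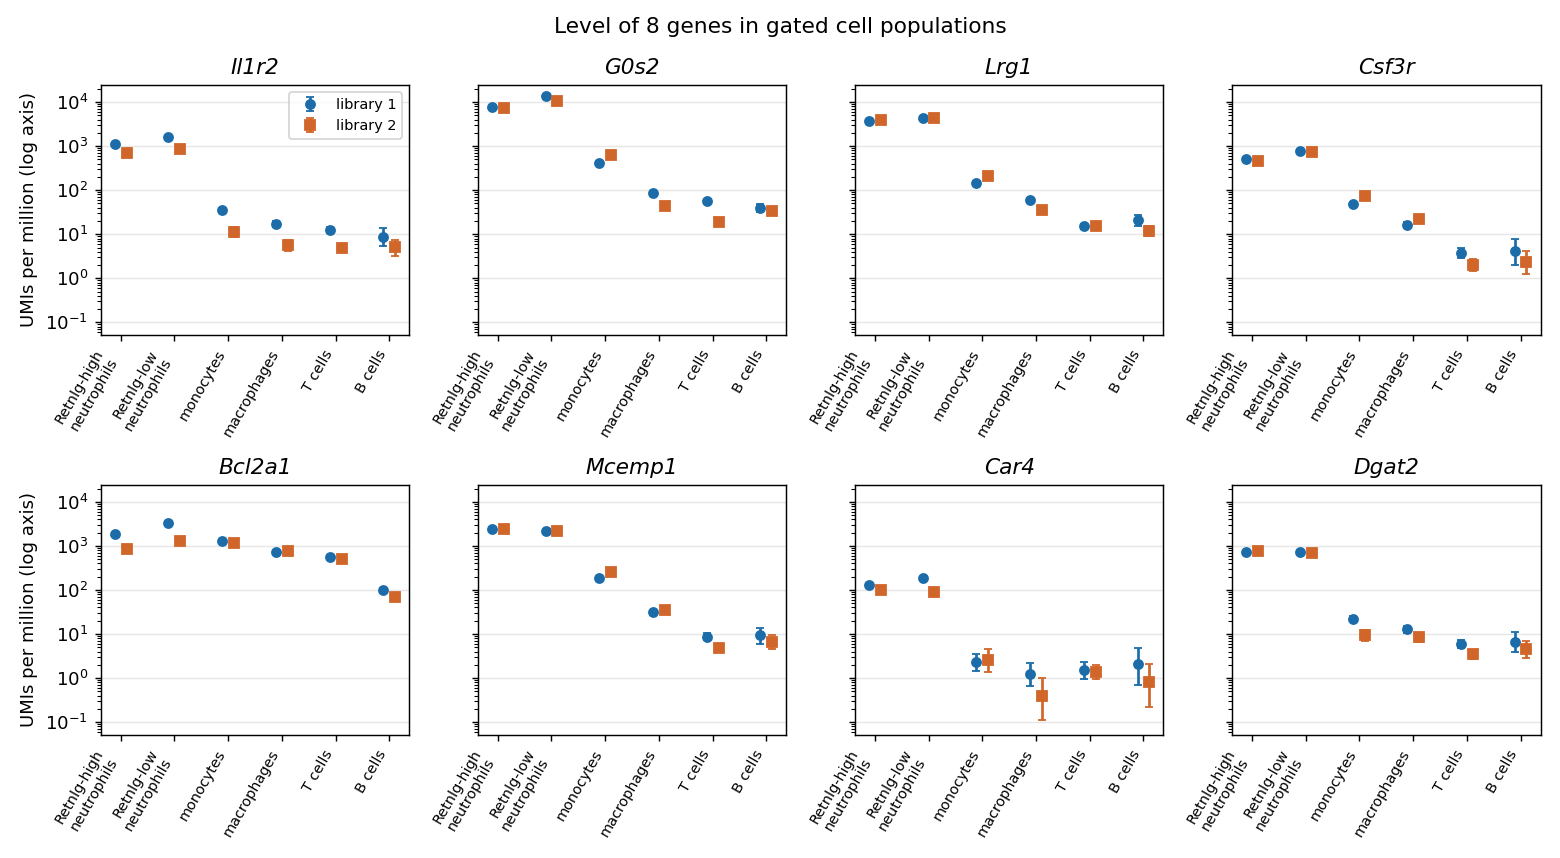
CPM (log axis) of each of the 8 genes in 6 gated populations, with circles for library 1, squares for library 2 and bars for the 95% counting interval. For 7 genes both neutrophil subsets lie far above the other populations, while Bcl2a1 stays between 492 and 1283 CPM in monocytes, macrophages and T cells.

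Csf3r encodes the receptor for G-CSF, whose signal raises the output of neutrophils and delays their death. Its level was 504 CPM in Retnlg-high and 794 CPM in Retnlg-low cells of library 1, and 473 and 725 CPM in those of library 2. The Retnlg-low cells were thus higher by 1.58-fold (1.47 to 1.69) in library 1 and 1.53-fold (1.43 to 1.64) in library 2. Under TMM factors the log2 ratio in library 2 was 0.28 in place of 0.61. Monocytes held 48.1 and 75.2 CPM, and macrophages 15.9 and 22.2 CPM. With every cell drawn down to 1500 UMIs, a Csf3r UMI was found in 64.5% (62.9 to 66.1) and 56.8% (54.3 to 59.3) of neutrophils, and in 0.388% and 0.171% of T cells, which should lack it. Among monocytes the share was 6.96% in library 1 and 12.5% in library 2, above the T cells of each library.

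Il1r2 encodes the decoy receptor that binds interleukin 1 without signalling. It stood at 1104 CPM in Retnlg-high and 1584 CPM in Retnlg-low cells of library 1, and at 707 and 856 CPM in those of library 2. Retnlg-low cells were higher by 1.44-fold (1.37 to 1.51) and 1.21-fold (1.14 to 1.29), and both subsets of library 2 lay below both of library 1. The ratio in library 2, 0.27 on the log2 scale, was close to the median of all genes, 0.23, and became -0.05 when the libraries' sums were rescaled with TMM factors. Monocytes held 35.1 and 11.3 CPM, macrophages 17.1 and 5.61 CPM and T cells 12.4 and 4.87 CPM. In each of these 3 populations library 1 was the higher, as in neutrophils.

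Other interleukin 1 genes were measured from a list of 13. Between Retnlg-low and Retnlg-high cells 11 were tested and 0 changed by 2-fold in either library, while 10 of 11 had a positive ratio in each, with a median of 0.45 in library 1 and 0.34 in library 2 against 0.16 and 0.23 for all genes. Il1b, the secreted ligand, was at 3789 and 7065 CPM in Retnlg-high and Retnlg-low cells of library 1 and at 4542 and 6308 CPM in library 2. Nfkbia, the inhibitor that NF-kappaB induces against itself, was at 1225 and 2269 CPM in library 1 and 939 and 1421 CPM in library 2. Irak2, a kinase of the receptor complex, was at 29.9 and 51.9 CPM in library 1 and 38.3 and 63.7 CPM in library 2.

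Around Csf3r, a list of 13 genes of G-CSF and GM-CSF signalling was read in the same way. Of 11 tested, 0 changed by 2-fold between the subsets in either library, and the medians were 0.28 and 0.19. Cebpb, a factor of emergency granulocyte production, was at 5402 and 7341 CPM in Retnlg-high and Retnlg-low cells of library 1 and at 5624 and 7026 CPM in library 2. Socs3, the feedback inhibitor of the receptor, was at 37.0 and 55.1 CPM in library 1 and at 35.0 and 51.8 CPM in library 2. Jak1, a kinase of cytokine receptors, was at 191 and 255 CPM, then 161 and 206 CPM.

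Bcl2a1 encodes an anti-apoptotic protein of the BCL2 family that is induced by inflammatory signals in leukocytes. It was at 1915 CPM in Retnlg-high and 3359 CPM in Retnlg-low cells of library 1, and at 831 and 1318 CPM in those of library 2. Retnlg-low cells were higher in both, by 1.75-fold (1.69 to 1.82) and 1.59-fold (1.51 to 1.67). With TMM factors the log2 ratio in library 2 was 0.33 in place of 0.66. The Retnlg-low cells of library 2 still lay below the Retnlg-high cells of library 1.

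Bcl2a1 was the one gene of the 8 that was widely found outside neutrophils. Monocytes held 1283 CPM in library 1 and 1185 CPM in library 2, macrophages 726 and 760 CPM, T cells 568 and 492 CPM and B cells 99.8 and 67.5 CPM. In library 1 neutrophils as a whole, at 3088 CPM, were 2.41-fold (2.36 to 2.46) above monocytes. In library 2 they were at 1039 CPM, 0.876-fold (0.845 to 0.909) of the monocyte level, but above it under TMM factors, with a log2 ratio of 0.71. Against macrophages the fold was 4.25 (4.15 to 4.36) in library 1 and 1.37 (1.32 to 1.41) in library 2. At 1500 UMIs, 84.3% and 58.9% of neutrophils had a Bcl2a1 UMI, against 71.5% and 67.4% of monocytes and 30.9% and 28.9% of T cells.

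The other regulators of apoptosis were a list of 14 genes, of which 12 are in the matrix, while Mcl1 and Bbc3 were not analysed here. Of 10 tested between the subsets, 0 changed by 2-fold in either library, and the medians were 0.22 and 0.28. Birc3, an inhibitor of apoptosis that NF-kappaB induces, was at 79.1 and 151 CPM in Retnlg-high and Retnlg-low cells of library 1 and at 105 and 168 CPM in library 2. Pmaip1, which encodes the pro-apoptotic NOXA, was at 145 and 248 CPM in library 1 and 128 and 219 CPM in library 2, and Bax, also pro-apoptotic, at 44.8 and 70.7 CPM, then 52.0 and 107 CPM.

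G0s2 encodes an inhibitor of adipose triglyceride lipase, the enzyme that starts the breakdown of stored triglyceride. Its level was 7885 CPM in Retnlg-high and 13492 CPM in Retnlg-low cells of library 1, and 7403 and 10558 CPM in those of library 2. Retnlg-low cells were higher by 1.71-fold (1.68 to 1.74) and 1.43-fold (1.40 to 1.45). The log2 ratio in library 2 was 0.18 under TMM factors, in place of 0.51. At 1500 UMIs the median Retnlg-low cell of library 1 had 19 G0s2 UMIs, with 7 at the 10th and 39 at the 90th percentile, and the median Retnlg-high cell had 11. In library 2 the medians were 15 and 10. A UMI of G0s2 was found in 98.9% and 97.6% of neutrophils and in 4.35% and 2.76% of T cells.

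G0s2 was also found in part of the monocytes, at 417 and 620 CPM. At 1500 UMIs 24.3% (21.8 to 26.9) and 29.6% (26.1 to 33.2) of monocytes had a UMI, and the highest monocyte had 22 in library 1 and 28 in library 2. For each 100 UMIs of S100a8 and S100a9 there were 116 and 187 UMIs of G0s2 in monocytes, but 9.65 and 5.14 in neutrophils and 29.4 and 11.0 in T cells. The part of free RNA in the monocyte level was not tested. With monocytes limited to those under 0.5% of UMIs in S100a8 and S100a9, the log2 ratio of neutrophils over monocytes was 4.90 and 3.82, against 4.87 and 3.80 with all. Macrophages were at 87.9 and 42.8 CPM, with 29.8 and 20.9 UMIs per 100. With the same limit on macrophages the log2 ratio of neutrophils over them was 7.52 and 7.57, against 6.99 and 7.37 with all.

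Dgat2 encodes the enzyme of the last step of triglyceride synthesis. It was at 714 CPM in Retnlg-high and 734 CPM in Retnlg-low cells of library 1, and at 751 and 707 CPM in those of library 2. The folds of 1.03 (0.968 to 1.09) and 0.940 (0.884 to 1.00) both had intervals that included 1. On the log2 scale they were 0.04 and -0.09, below the medians of all genes, 0.16 and 0.23. With S100a8, S100a9 and Retnlg left out of the total the log2 ratios were -0.11 and -0.24. Under TMM factors they were 0.05 and -0.41. Outside neutrophils Dgat2 did not exceed 22.2 CPM.

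Of 14 genes of triglyceride storage and lipolysis, 5 were tested between the subsets, with medians of -0.04 and 0.09. Fabp5, a fatty acid binding protein, was lower by 2-fold or more in Retnlg-low cells of both libraries, at 87.4 and 37.3 CPM in Retnlg-high and Retnlg-low cells of library 1 and 61.4 and 22.4 CPM in library 2. Plin2, a coat protein of lipid droplets, was at 522 and 861 CPM in library 1 and 658 and 1028 CPM in library 2. Acsl4, which activates fatty acids, was at 166 and 143 CPM, then 125 and 101 CPM.

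Lrg1 encodes a secreted leucine-rich glycoprotein that is stored in granules of human neutrophils and is known for effects on vessel growth. It was at 3655 CPM in Retnlg-high and 4268 CPM in Retnlg-low cells of library 1, and at 4011 and 4418 CPM in those of library 2. The folds were 1.17 (1.14 to 1.20) and 1.10 (1.07 to 1.13). In library 2 the log2 ratio of 0.14 lay below the median of all genes, and it became -0.19 under TMM factors and -0.01 when S100a8, S100a9 and Retnlg were left out of the total. Monocytes held 148 and 205 CPM and macrophages 60.6 and 35.0 CPM.

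Mcemp1 encodes a membrane protein of mast cells and other myeloid cells. It was at 2415 CPM in Retnlg-high and 2160 CPM in Retnlg-low cells of library 1, and at 2371 and 2145 CPM in those of library 2. It was the one gene of the 8 that was lower in Retnlg-low cells of both libraries beyond counting error, at 0.895-fold (0.865 to 0.925) and 0.905-fold (0.874 to 0.937). Monocytes held 186 and 262 CPM, and a UMI was found in 23.2% and 29.9% of them at 1500 UMIs, against 1.21% and 0.626% of T cells.

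Car4 encodes a carbonic anhydrase anchored to the outer cell membrane. It was at 127 CPM in Retnlg-high and 186 CPM in Retnlg-low cells of library 1, and at 98.2 and 91.0 CPM in those of library 2. The subsets differed by 1.47-fold (1.28 to 1.70) in library 1, and in library 2 the fold of 0.927 had an interval of 0.778 to 1.10 that included 1. It was the gene of the 8 with the lowest counts, found at 1500 UMIs in 12.1% and 13.2% of Retnlg-high and Retnlg-low cells of library 1 and in 9.12% and 9.15% of those of library 2. Monocytes were at 2.36 and 2.63 CPM and macrophages at 1.26 and 0.401 CPM, levels whose intervals overlapped those of the T cells in each library. None of the 5 other carbonic anhydrases on the list reached 20 CPM in neutrophils, monocytes or macrophages.

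The comparison of the subsets can be read over the 8 genes together. None changed by 2-fold or more in either library, where 0.772% of all genes were higher and 1.42% lower by that much in library 1, and 0.257% and 0.592% in library 2. Of all genes, 70.9% in library 1 and 78.2% in library 2 had a positive ratio. In library 1 it was positive for 7 of the 8 genes, with a median of 0.52 against 0.16 for all genes. In library 2 it was positive for 5 of 8, with a median of 0.21 against 0.23, so that the set as a whole stood at the level of all genes. S100a8 and S100a9 took 19.6% and 20.5% of all UMIs in Retnlg-high cells but 11.3% and 12.3% in Retnlg-low cells, which lowers the CPM of every other gene in the former. With these genes and Retnlg left out of the total, the median of all genes fell to 0.03 and 0.10, and G0s2, Csf3r and Bcl2a1 kept ratios of 0.62, 0.50 and 0.66 in library 1 and 0.36, 0.46 and 0.51 in library 2.

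Most of the granule genes tested ran the other way between the subsets, with medians of -1.49 and -1.67. Of 6 tested from a list of 10, 3 were lower by 2-fold or more in Retnlg-low cells of library 1 and 4 in library 2. By that measure 0 were higher, and 1 of the 6 had a positive ratio in each library. Mmp8, a granule collagenase, was at 2454 and 547 CPM in Retnlg-high and Retnlg-low cells of library 1 and at 1894 and 533 CPM in library 2. Ngp, a gene of the secondary granule, was at 42.6 and 0.637 CPM in library 1 and at 32.8 and 1.22 CPM in library 2. Camp, the cathelicidin gene, was at 530 and 115 CPM, then 650 and 143 CPM. Of 16 genes of the neutrophil surface and activation, 1 was higher and 0 lower by 2-fold or more in library 1, and 0 changed so in library 2, with medians of 0.35 and 0.15. The one was Cd274, which encodes PD-L1, at 27.6 and 97.0 CPM in Retnlg-high and Retnlg-low cells of library 1 and at 35.9 and 75.5 CPM in library 2. Ccrl2, a receptor that binds chemerin, was at 33.7 and 59.8 CPM in library 1 and 28.6 and 64.5 CPM in library 2. Cxcr4, the receptor linked to neutrophil ageing in mice, was at 206 and 419 CPM in library 1 and 276 and 399 CPM in library 2.

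Across 4 grades of Retnlg content at 1500 UMIs per cell, the CPM of G0s2, Csf3r and Bcl2a1 fell with each step in both libraries. G0s2 was at 14265, 10448, 9158 and 6796 CPM in library 1 cells with 0, 1 or 2, 3 to 9, and 10 or more Retnlg UMIs, and at 11006, 9365, 8073 and 6471 CPM in library 2. Csf3r went from 837 to 404 CPM and from 784 to 349 CPM between the outer grades. Bcl2a1 went from 3554 to 1538 CPM and from 1444 to 618 CPM. These outer grades held 2849 and 150 cells in library 1 and 730 and 290 in library 2. Between the middle grades the intervals overlapped for Csf3r in both libraries and for Bcl2a1 in library 2. Without S100a8, S100a9 and Retnlg in the total, Bcl2a1 in library 2 was at 1641, 1151, 1152 and 841 CPM. It thus did not fall between the middle grades there. On that total Csf3r went from 941 to 540 CPM in library 1 and from 891 to 475 CPM in library 2.

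The other 5 genes took different courses over the same grades. Car4 was lower at each step in library 1, at 181, 135, 120 and 102 CPM, and had no steady course in library 2, at 98.6, 68.7, 94.9 and 87.4 CPM. Il1r2 went from 1651 to 1098 CPM in library 1 and from 874 to 706 CPM in library 2. Mcemp1 went up instead, from 2181 to 2613 CPM and from 2157 to 2743 CPM. Lrg1 went from 4420 to 3889 CPM and from 4587 to 4170 CPM. Dgat2 stayed between 719 and 865 CPM in all grades of both libraries. Without S100a8, S100a9 and Retnlg in the total, Lrg1 and Dgat2 were higher in the outermost Retnlg grade than in cells without Retnlg. In library 1 they were at 5191 against 4972 CPM and 1074 against 847 CPM, while G0s2 was still lower, at 9071 against 16047 CPM. Il1r2 on that total was at 1465 against 1857 CPM in library 1, but at 960 against 993 CPM in library 2.

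**Figure D2:**
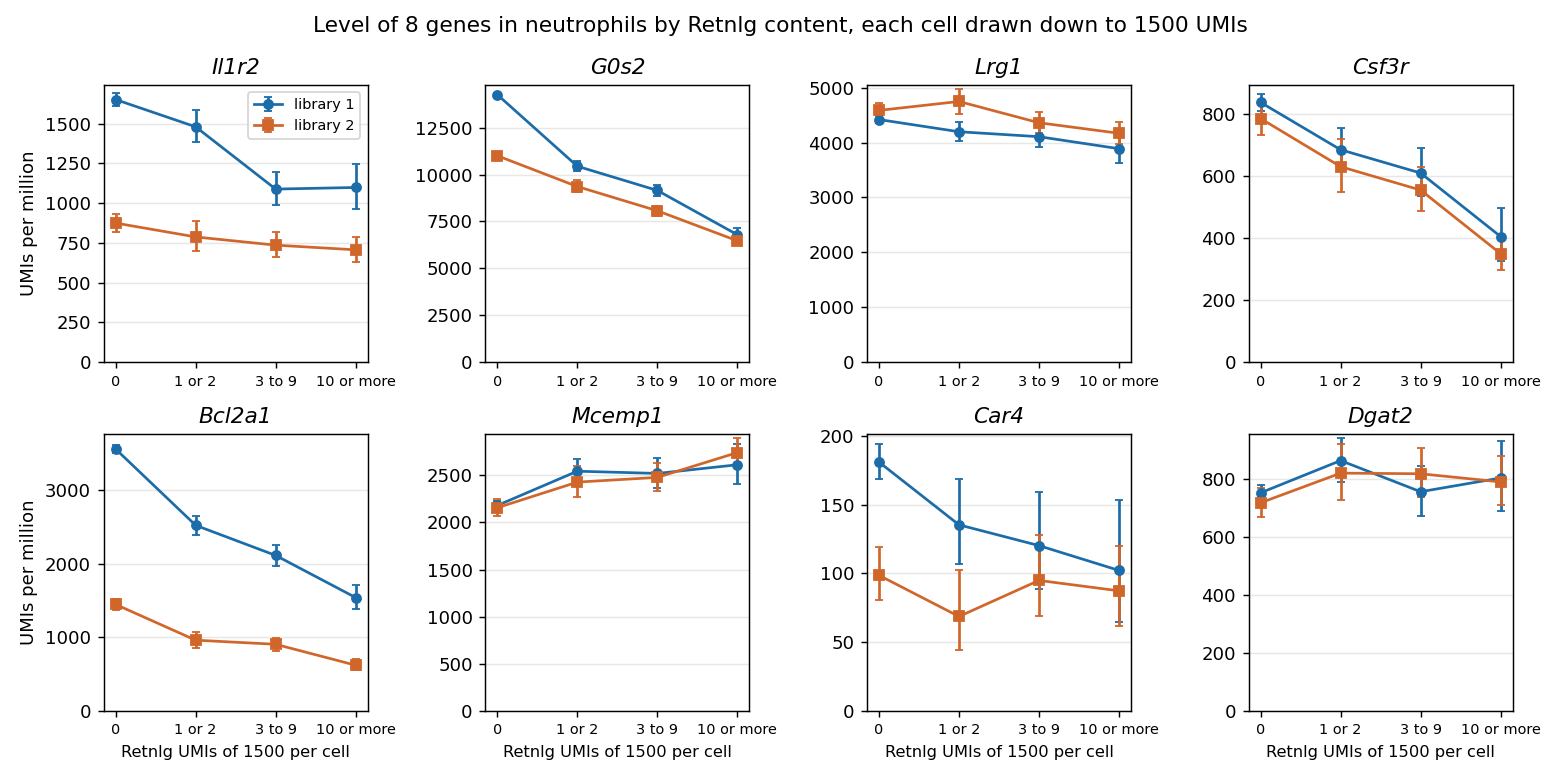
CPM of each of the 8 genes (vertical axes from 0) in neutrophils grouped by their Retnlg UMIs after each cell was drawn down to 1500 UMIs, with circles for library 1, squares for library 2 and bars for the 95% counting interval. G0s2, Csf3r and Bcl2a1 fall from left to right, Mcemp1 is higher at the right than at the left, and Dgat2 is near level.

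Transcripts listed as markers of other cells were present in both subsets. The summed level of 6 macrophage markers was 1425 and 1058 CPM in Retnlg-high and 1149 and 676 CPM in Retnlg-low cells of libraries 1 and 2, against 39335 and 23126 CPM in macrophages, with 3 or 4 of the 6 at 20 CPM or more in each. The summed level of 6 monocyte markers was 18520 and 13812 CPM in Retnlg-high and 19706 and 15445 CPM in Retnlg-low cells, against 22877 and 21557 CPM in monocytes, with 4 or 5 of the 6 at 20 CPM or more. Most of it was Lyz2, the lysozyme gene that neutrophils also express, at 13704 to 19475 CPM in the subsets, and F13a1 was at 0 to 2.29 CPM. The summed level of 4 T cell markers was 25.7 to 69.4 CPM and that of 4 B cell markers 2.68 to 9.12 CPM, with Pax5 at 0 in both subsets of library 1. In neutrophils without a UMI of C1qa, C1qb, C1qc, Cd3e or Cd79b the log2 ratios of Retnlg-low over Retnlg-high cells were 0.81 and 0.71 for Bcl2a1, 0.73 and 0.51 for G0s2 and 0.61 and 0.63 for Csf3r. They differed by at most 0.05 from those in all neutrophils. The part of the other transcripts in the ratios was not otherwise tested.

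The libraries were set against each other within each subset, as 1 library against 1 with no test. Bcl2a1 alone was lower by 2-fold or more in library 2, in both subsets, where 0.928% of all genes were so in Retnlg-low and 1.65% in Retnlg-high cells. Under TMM factors 3 of the 8 passed in Retnlg-low cells, with Il1r2 at -1.11 and Car4 at -1.19 on the log2 scale. Library 2 held 0.392-fold (0.378 to 0.407) of the level of library 1 in Retnlg-low cells and 0.434-fold (0.413 to 0.456) in Retnlg-high cells. Its level in monocytes, macrophages and T cells, given above, differed by less than 1.5-fold between the libraries. No gene of the 8 was higher by 2-fold, where 1.76% and 1.57% of all genes were. Il1r2 was at 0.540-fold (0.516 to 0.566) in Retnlg-low and 0.640-fold (0.603 to 0.680) in Retnlg-high cells.

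Car4 was at 0.490-fold (0.423 to 0.564) in Retnlg-low cells, a log2 ratio of -0.96 after the 10 CPM were added, and at 0.776-fold (0.653 to 0.923) in Retnlg-high cells. G0s2 was at 0.783-fold (0.772 to 0.793) and 0.939-fold (0.920 to 0.958). Csf3r was at 0.914-fold (0.866 to 0.963) and 0.939-fold (0.864 to 1.02). Lrg1, Mcemp1 and Dgat2 lay between 0.962-fold and 1.10-fold in both subsets. Under TMM factors the log2 ratios turned from -0.09 to 0.02 for G0s2 and Csf3r and from -0.03 to 0.08 for Mcemp1 in Retnlg-high cells, and from 0.05 to -0.18 for Lrg1 in Retnlg-low cells. The 8 genes therefore did not differ by a common factor between the libraries.

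**Figure D3:**
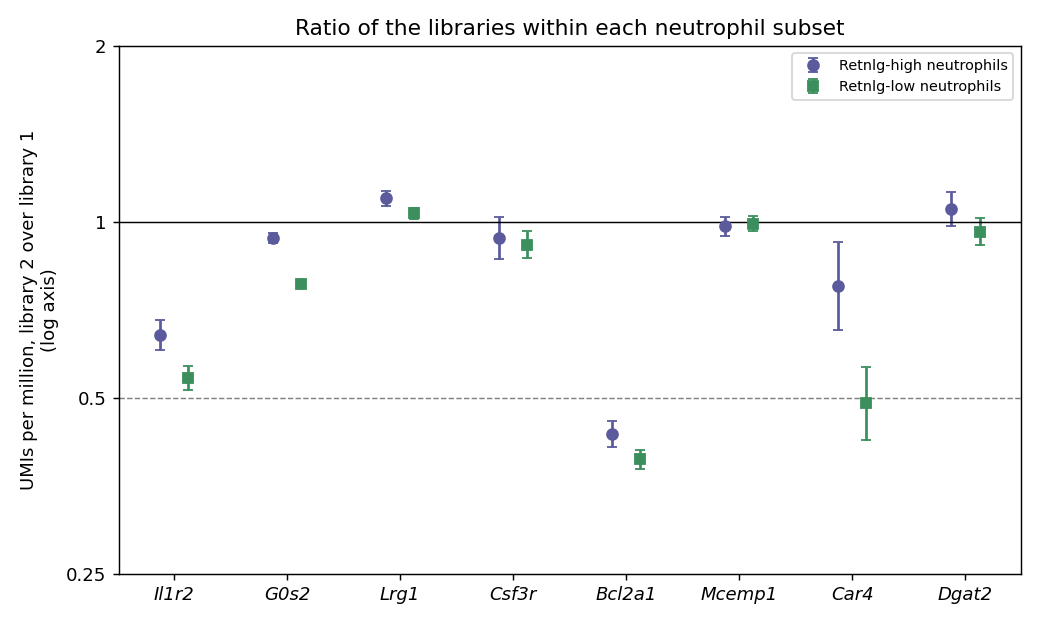
Ratio of CPM in library 2 over library 1 (log axis) for each of the 8 genes, in Retnlg-high (circles) and Retnlg-low (squares) neutrophils, with 95% counting intervals and a dashed line at 0.5. Bcl2a1 is at 0.434 and 0.392, Il1r2 and Car4 lie below 1 in both subsets, and Lrg1, Mcemp1 and Dgat2 lie close to 1.

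The neutrophils of the libraries also differed in interferon-induced transcripts. At 1500 UMIs, 61.6% of neutrophils of library 1 and 94.4% of library 2 had 3 or more UMIs of Isg15, Ifit3, Ifit2, Rsad2 and Irf7. Within library 1, Bcl2a1 was at 3537 CPM (3458 to 3619) in cells with 0 to 2 such UMIs and at 3083 CPM (3024 to 3143) in the others. Within library 2 it was at 1663 CPM (1449 to 1899) in 87 cells and 1079 CPM (1037 to 1124) in the others. Among cells with 3 or more such UMIs the log2 ratio of the libraries for Bcl2a1 was -1.31 in Retnlg-low and -1.13 in Retnlg-high cells. In all neutrophils it was -1.34 and -1.19. The first values are for cells drawn down to 1500 UMIs and the second for all UMIs, so depth differed as well.

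Most neutrophils carried most of the 8 genes. At 1500 UMIs the median number of the 8 genes with a UMI was 6 in library 1 and 5 in library 2. At least 4 were found in 98.2% (97.7 to 98.6) and 95.8% (94.7 to 96.8) of neutrophils. The same held for 3.66% and 7.01% of monocytes, 0.587% and 0.281% of macrophages and 0.345% and 0.0285% of T cells. All 8 were found in 136 neutrophils (3.73%) of library 1 and 18 (1.16%) of library 2, and in 0 monocytes or macrophages.

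**Figure D4:**
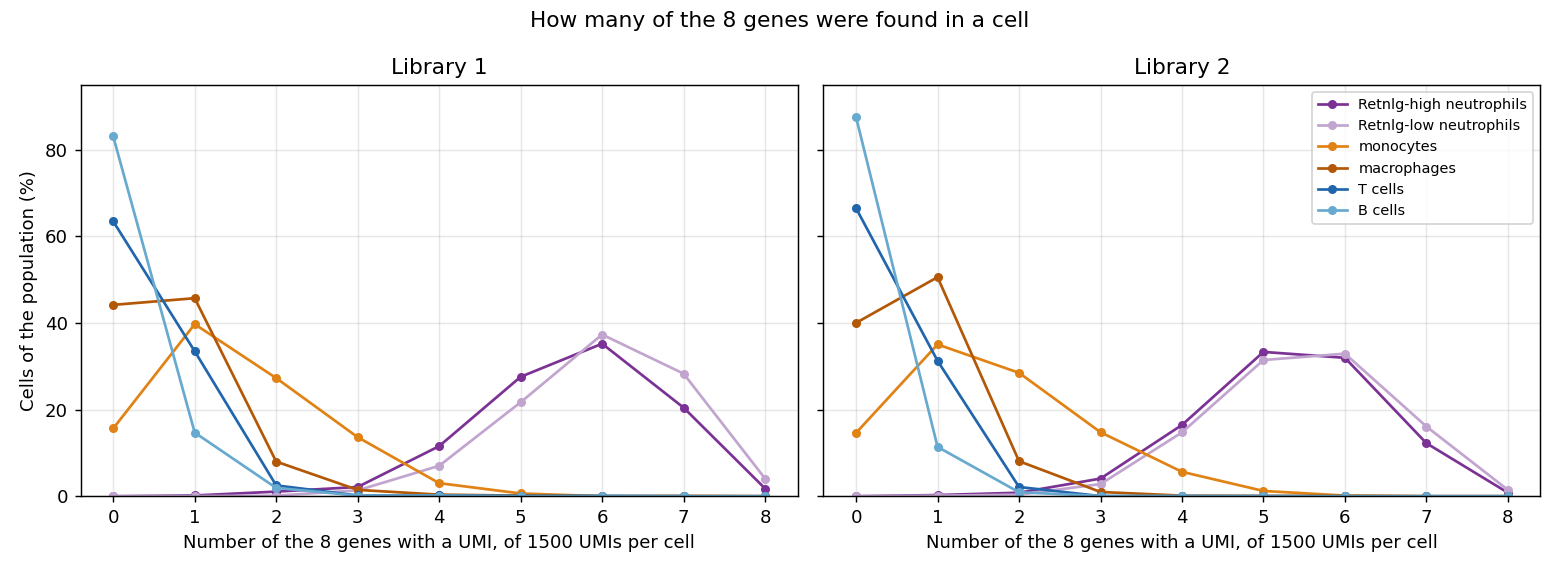
Share of cells (%) in each gated population by how many of the 8 genes had a UMI at 1500 UMIs per cell, with library 1 at the left and library 2 at the right. The curves of both neutrophil subsets peak at 5 or 6 genes, and those of the other populations at 0 or 1.

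Over 28 pairs of the genes in all neutrophils, the share of cells with both was 0.930 to 1.11 times the product of the separate shares in both libraries. The highest phi coefficient, a correlation of presence and absence, was 0.102 in library 1 and 0.0966 in library 2, both for G0s2 with Lrg1. So weak a relation is no finding, and few neutrophils lacked either gene, which limits what presence and absence can show. Within Retnlg-high cells alone the highest phi was 0.209 and 0.161, and the share of both over the product was as low as 0.733 in library 1, for Csf3r with Car4. Within Retnlg-low cells the highest phi was 0.102 and 0.117. In all neutrophils an odds ratio of 1.5 or more was met by 12 pairs in library 1 and 7 in library 2, where 2.35% and 7.73% of all gene pairs met it. The highest, 8.60 and 7.07 for G0s2 with Lrg1, rest on the few cells that lacked either gene, since 96.0% and 95.8% of neutrophils had both. Il1r2 and Bcl2a1 were found together in 67.1% and 37.7% of neutrophils, against products of 65.6% and 35.8%.

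The genes found most in the same neutrophils as each of the 8 were taken from 2400 genes by the mean phi of both libraries. For Bcl2a1 they were Cxcl2 (0.129), Nfkbia (0.102) and Fcgr1a (0.0977), and for Il1r2 they were Cxcl2 (0.128), Ctsc (0.0966) and Ier3 (0.0938). For Mcemp1 they were Mmp8 (0.120), Msrb1 (0.0812) and Retnlg (0.0797), and for Dgat2 they were Mmp8 (0.0658), Sod2 (0.0634) and Pglyrp1 (0.0633). For Car4 they were Ero1a (0.103), Mif (0.0977) and Ccl2 (0.0895), and for Csf3r Scimp (0.121), Ftl1 (0.0895) and Ddit3 (0.0813). For G0s2 they were Cebpb (0.0963), Ccl6 (0.0789) and Srgn (0.0731), and for Lrg1 Ier2 (0.0718), Cdkn1a (0.0656) and Egr1 (0.0627). All are weak and describe these libraries alone.

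Over the 12 pools of 6 populations and 2 libraries, the genes whose level was most like the mean profile of the 8 were Sort1, Clec4b2, Sirpd, Atg3 and Clec1a, with Pearson correlations of 0.993, 0.992, 0.992, 0.991 and 0.990 among 4615 genes. The pools share libraries and depth, so this is a description. Clec4b2, a C-type lectin, was at 109 and 84.5 CPM in Retnlg-high and 137 and 108 CPM in Retnlg-low cells, and at most 14.1 CPM elsewhere. Sirpd was at 295 and 320 CPM in Retnlg-high and 357 and 373 CPM in Retnlg-low cells, and at most 30.5 CPM elsewhere. Atg3 was not confined to neutrophils, at 366 and 319 CPM in Retnlg-high and 432 and 415 CPM in Retnlg-low cells. It was at 87.2 to 169 CPM elsewhere. Of the 8 genes themselves, Lrg1 had the correlation nearest to 1 and Bcl2a1 the lowest, 0.761. Each of the 8 is part of the mean it was set against, which raises its correlation.

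The limits of the gates were checked on the cells next to them. In library 1, 191 cells with 1 to 2% of UMIs in S100a8 and S100a9 had 11058 CPM of G0s2, like the 11087 CPM of the 202 cells with 2 to 3%. In library 2, 94 cells just outside had 3775 CPM and 61 just inside had 8295 CPM. C1q transcripts were at 1283 CPM outside and 652 CPM inside in library 1, and at 608 and 421 CPM in library 2. Cells with 2 and with 3 Retnlg UMIs had 9712 and 10332 CPM of G0s2 in library 1 and 9379 and 9303 CPM in library 2. For Car4 they had 119 and 173 CPM in library 1 and 85.8 and 189 CPM in library 2.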

How the data were processed

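Sorted CD45+ cells of 2 samples were measured on the 10x Genomics platform. The values are raw counts of UMIs, deposited as 1 matrix of 32623 genes by 29949 barcodes, and the software was Cell Ranger, version 4.0.0, per the file headers. The sources used here name no genome build, annotation or settings for calling cells. A deposited table of 33756 barcodes shared 111 with the matrix by full name, and its sets shared 47 to 64 with each library, so it assigned no cell. The comparison of MI with MI+PUR-hAESC could therefore not be made.

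Counts of 1 symbol were added up (26976 symbols). Barcodes needed 200 genes and at most 20% mitochondrial UMIs (315 and 235 failed), and Scrublet in scanpy 1.11.5, with an expected share of 8%, removed 634 (4.54%) and 997 (6.46%) doublets. Neutrophils had 2% or more of UMIs in S100a8 and S100a9. Macrophages had 3 or more C1q UMIs making up 0.1% or more, monocytes 3 or more of Fcnb and Vcan with at most 2 of C1q, and T and B cells 3 or more UMIs of receptor genes, without Rag1 or Dntt in T cells. Cells of more than 1 gate were left out, and with ungated cells these were 3797 and 5461. Counts were summed per library and population and divided by their total (CPM). A change was called at 2-fold in CPM plus 10, over genes with 20 CPM in either pool. Intervals at 95% are exact Poisson for a level, Clopper-Pearson for a share and conditional binomial for a fold. Each cell was drawn down to 1500 UMIs for shares, which left out 261 and 136 neutrophils.

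The 8 genes and the 7 lists were chosen with earlier results of these data known. Named genes are the 8, the 3 of each list with the largest mean ratio in size between the subsets, and the genes most like the 8. Calls were tested on simulated data, where genes changed by 4-fold were found in 91% or more of cases in each comparison. The simulated counts held counting error only. They do not cover smaller changes or the spread between cells, libraries or animals. Alternatives covered doublets, gates, the Retnlg split, the pseudocount, TMM factors (edgeR 4.0.16 under R 4.3.3), clusters and thinning. Clusters replaced the macrophage and monocyte gates only, and the gated neutrophils were kept. A cluster of 3089 cells in library 1 and 650 in library 2, led by Il1r2, G0s2, Csf3r and Lrg1, was left unnamed by the marker rule. Promoters came from RefSeq tables of GRCr8.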

Additional observations from a re-analysis of the deposited data

Results flagged for a closer look

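For 2 genes the ratio of Retnlg-low over Retnlg-high neutrophils had opposite signs in the libraries, and the difference between the libraries was not tested. For Car4 the log2 ratio was 0.52 in library 1 and -0.0991 in library 2, and for Dgat2 it was 0.0405 and -0.0873. The counting interval of the fold excluded 1 for Car4 in library 1 only. With the split at 0.1% of UMIs in Retnlg in place of 3 UMIs, the ratios were 0.45 and 0.09 for Car4 and -0.01 and -0.16 for Dgat2, so neither pair then had opposite signs.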

How the results depend on the processing

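Of 120 counts under alternative settings, 116 stayed within 1.5 times the value reported, and no called ratio changed its sign. Many of these counts had little room to move. Those between the subsets, and those of genes higher in library 2, were 0 in each setting. Those over macrophages or monocytes were 7 or 8 of the 8 genes. The 4 counts that left the range are given below. For the ratios of single genes, 290 lay within a counting interval and 270 outside it. That interval was for the fold without the pseudocount, while the ratios included the pseudocount. For Il1r2 in neutrophils over macrophages of library 1, the reported log2 ratio of 5.79 itself lay outside the interval, 6.24 to 6.67. The split of 290 and 270 therefore does not measure how far the ratios moved. The number of genes lower by 2-fold in library 2 in Retnlg-low neutrophils was 1 as reported, 3 under TMM factors (Bcl2a1, Il1r2 and Car4) and 2 with a pseudocount of 1 CPM. The number of pairs with an odds ratio of 1.5 or more went from 12 to 4 in library 1 when cells were drawn down to 1000 UMIs, and from 7 to 24 in library 2 without drawing down. TMM factors moved the median of all genes by 0.82 to 1.02 for neutrophils over the other populations, by -0.28 for the subsets in library 2, and by -0.20 and 0.10 for the libraries in Retnlg-low and Retnlg-high cells. Under them 3 of 8 genes had a positive ratio between the subsets in library 2, namely G0s2, Csf3r and Bcl2a1. The totals without S100a8, S100a9 and Retnlg, the stricter monocyte and macrophage gates and the interferon split were chosen after seeing the data. Rare transcripts such as Car4 are limited by depth. No paired analysis was possible because each group has 1 sample and the labels do not say which suffix is which.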
